A study of Rattus norvegicus with 47 samples.

Results

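The genes described here are 5 genes of the central nervous system myelin sheath: Mbp, Mobp, Mog, Cnp and Mag. They were followed on 47 arrays of rat cortex and hippocampus taken after a brain injury. The members were all probe sets (the sets of short probes that report 1 transcript) to which the platform annotation gives 1 of these symbols, which came to 11 of the 8799 probe sets on the array and 5 of 4737 genes with a symbol of their own. Mobp had 4 probe sets, Mag 3, Mog 2, and Mbp and Cnp 1 each. All 11 passed the filter on dim signal.

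The RNA on an array was total RNA of 1 brain region, cortex or "HC" (read here as hippocampus), from 1 side, labelled ipsilateral or contralateral. The groups were ipsilateral cortex at 4 h (7 arrays), contralateral cortex at 4 h (8), ipsilateral cortex at 24 h (8), contralateral cortex at 24 h (8), ipsilateral hippocampus at 4 h (7) and contralateral hippocampus at 4 h (9). The labels give the same treatment entry, wait, for all 47 arrays and do not set sham-operated apart from injured animals, so a difference between sides is not one between injured and uninjured tissue. Strain, age and kind of injury were not found in the labels. Whether each array stands for an animal of its own is not stated either, and the p-values reflect the spread among arrays, part of which may be technical.

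The deposited signals had 2%-trimmed means of 2503 to 2504 and medians of 615 to 879 per array. Arrays are called by the sample number in their labels. Of 8 hippocampus-enriched marker genes tested, 5 were higher in hippocampus than in cortex on the contralateral side and 6 on the ipsilateral side (limma, Benjamini-Hochberg adjusted p under 0.05), and 1 went the other way on each side. The number of arrays limits the precision.

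Myelin is the stack of membrane that oligodendrocytes wrap around axons. Mbp (myelin basic protein) draws the inner membrane faces together, and its messenger RNA is carried out into the oligodendrocyte processes and translated there. Mobp is a small basic protein of the same compact layers and its RNA is also found in the processes. Cnp is an enzyme of the uncompacted cytoplasmic channels. Mog lies on the outermost surface of the sheath, and Mag on the innermost, facing the axon. In mature oligodendrocytes the transcription factors Sox10 and Myrf turn these genes on. In total RNA of a tissue, fewer oligodendrocytes and less RNA per oligodendrocyte cannot be told apart.

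Promoter windows from 250 bases before to 50 bases after the transcription start were found in RefSeq's table (build GRCr8) for 4 of the 5 genes, Mbp having 2. Mog had no entry. They are shown because the 5 genes moved together from array to array, and because SOX factors such as Sox10 bind a short core found in some of them. The capitals mark each match to CTTTGT, or to ACAAAG on the other strand, the core bound by SOX factors. Both strands were searched, and matches cannot overlap one another. Of 33469 windows of the same length in the table, 18.8% hold at least 1 match. The Mobp window lies at chr8:128746982-128747281 on the plus strand, the Cnp window at chr10:86011254-86011553 on the plus strand and the Mag window at chr1:95290995-95291294 on the minus strand.
Mobp: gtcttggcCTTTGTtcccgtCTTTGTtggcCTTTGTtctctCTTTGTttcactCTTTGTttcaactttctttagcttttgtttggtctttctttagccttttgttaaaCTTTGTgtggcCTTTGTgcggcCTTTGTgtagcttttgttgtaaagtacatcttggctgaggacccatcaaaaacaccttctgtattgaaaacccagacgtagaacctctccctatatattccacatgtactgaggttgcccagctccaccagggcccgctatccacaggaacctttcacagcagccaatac
Cnp: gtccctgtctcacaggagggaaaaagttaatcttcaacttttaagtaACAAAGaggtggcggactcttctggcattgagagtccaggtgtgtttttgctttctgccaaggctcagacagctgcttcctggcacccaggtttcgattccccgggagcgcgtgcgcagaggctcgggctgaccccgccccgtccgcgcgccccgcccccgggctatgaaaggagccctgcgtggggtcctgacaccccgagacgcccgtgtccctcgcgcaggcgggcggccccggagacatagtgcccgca
Mag: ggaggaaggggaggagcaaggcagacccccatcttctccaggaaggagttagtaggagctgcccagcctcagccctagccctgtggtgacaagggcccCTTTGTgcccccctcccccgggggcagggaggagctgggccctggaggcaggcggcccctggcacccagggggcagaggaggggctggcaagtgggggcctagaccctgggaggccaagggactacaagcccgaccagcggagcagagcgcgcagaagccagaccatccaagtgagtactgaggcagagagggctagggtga
The Mobp window held 8 matches, at positions 9, 21, 31, 42, 54, 109, 120 and 131 from its 5′ end, all on the strand shown. Of the 33469 windows 3 (0.00896%), that of Mobp among them, held at least 8. The 8 matches lie in a stretch where similar short runs of letters recur, so they are not independent of one another. The Cnp window held 1 match, at position 48 and on the opposite strand, and the Mag window 1, at position 99. The Mbp windows held 0 and 1. A match is a description of the letters and not a site shown to be bound.

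Levels are given as deposited signal, on a linear scale, for the probe set of each gene with the highest mean over the arrays (its main probe set). Values of different probe sets are not compared as amounts of RNA. Differences are on the log2 scale. The plot of log2 signal by group shows every array.

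**Figure D1:**
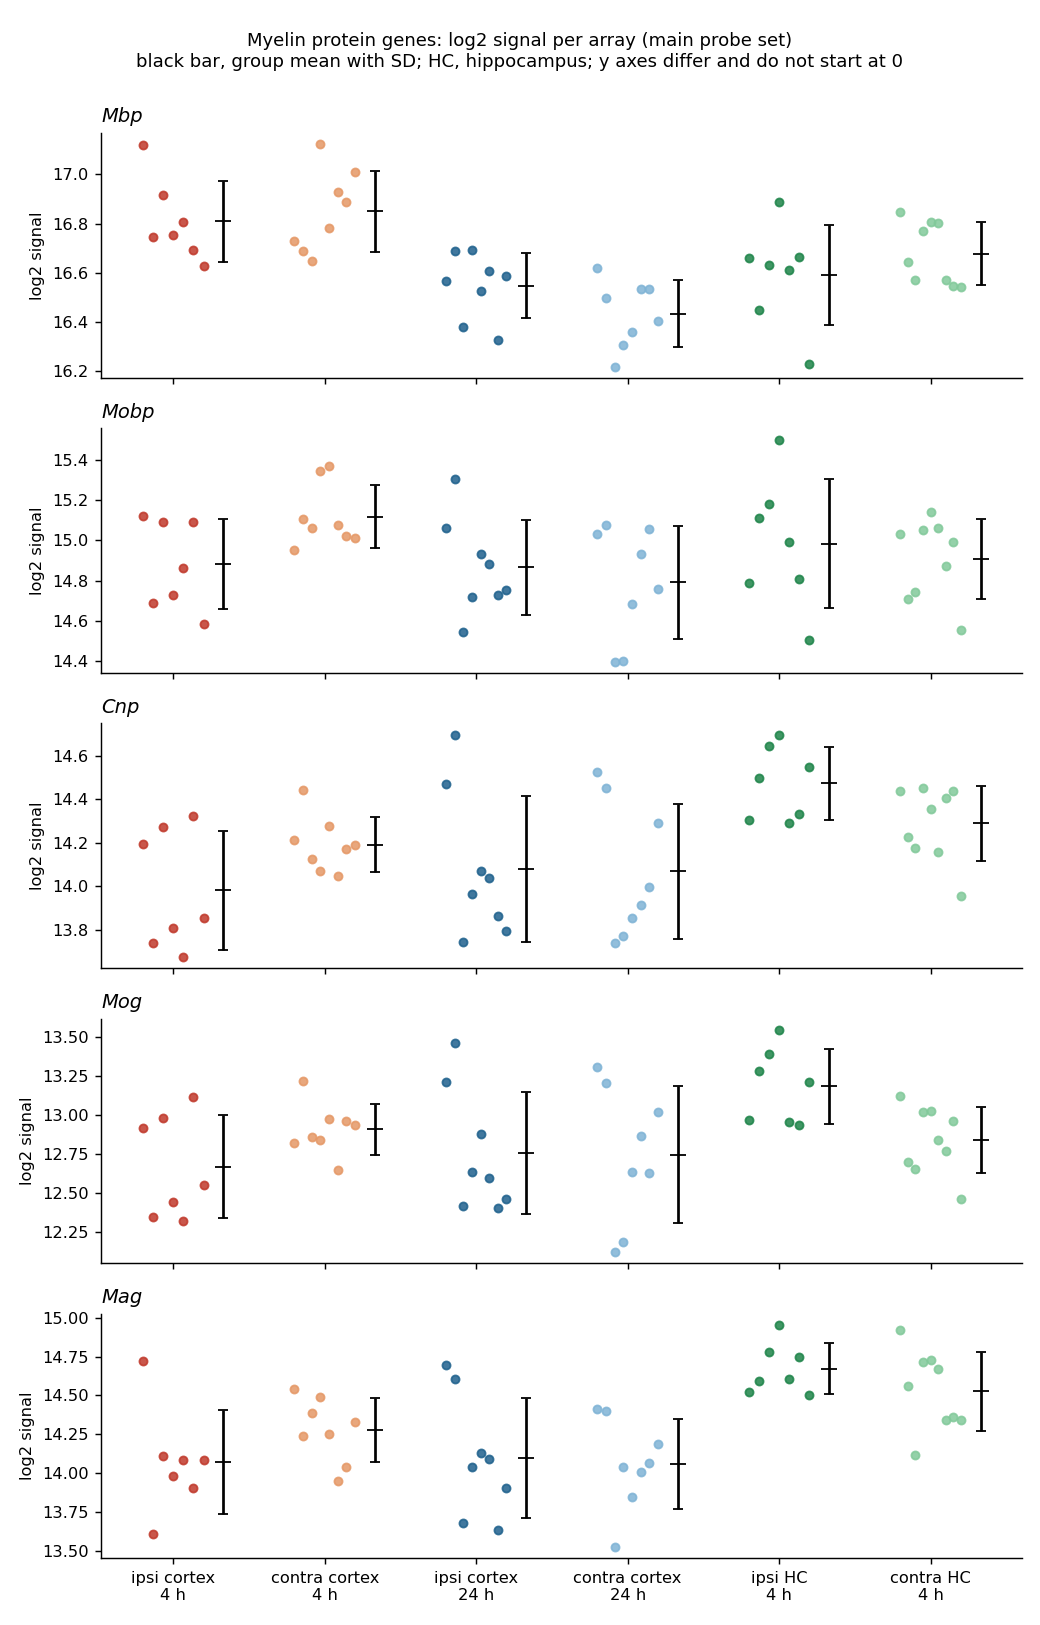
Log2 signal of the main probe set of each gene on each of the 47 arrays (points), with the group mean and SD (black); groups are on the x axis and the y axes differ between genes. Mbp was lower in both 24 h groups than in the 4 h cortex groups, while Cnp, Mog and Mag had their highest mean in ipsilateral hippocampus.

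Mbp had its highest signals in cortex at 4 h. In contralateral cortex at 4 h the lowest, median and highest arrays read 102745, 117005 and 142659. In ipsilateral cortex at 4 h they read 101191, 110457 and 142270. These 2 groups covered nearly the same range.

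At 24 h the Mbp signal in ipsilateral cortex ran from 82199 through a median of 97724 to 105905. In contralateral cortex at 24 h it ran from 76176 through 89627 to 100775. All 8 contralateral arrays at 24 h lay below the lowest contralateral array at 4 h, and 6 of the 8 ipsilateral ones lay below the lowest ipsilateral array at 4 h. The hippocampal medians at 4 h lay between those of cortex at the 2 times, with lowest, median and highest signals of 76906, 101548 and 121235 on the ipsilateral side and 95353, 102266 and 117936 on the contralateral side.

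Mobp, read by D28111_g_at, was highest in contralateral cortex at 4 h, with 31683, 34380 and 42289 as lowest, median and highest signal. Contralateral cortex at 24 h had 21564, 29471 and 34506, and 5 of its 8 arrays lay below all 4 h arrays of that side. The other 4 groups had medians from 28912 to 32576 and overlapped widely. In the order of mean log2 signal, each Mobp group differed from the next by less than either SD, at most 0.13. Of all such neighbours in the 5 genes, the gap was wider than both SDs for the top pair of Cnp (0.18, SDs 0.17 and 0.17) and of Mog (0.28, SDs 0.24 and 0.16), and for no other pair. The other Mobp probe sets gave another order. D28110_at, D28110_g_at and D28111_at had their highest mean log2 signal in ipsilateral hippocampus (12.74, 13.94 and 14.23). In contralateral cortex at 4 h these means were 12.66, 13.67 and 14.01.

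Cnp ran highest in ipsilateral hippocampus, where the lowest, median and highest arrays read 20059, 23168 and 26549. Contralateral hippocampus had 15905, 20959 and 22421. Ipsilateral cortex at 4 h was lowest, with 13077, 14812 and 20510, and 5 of the 7 ipsilateral hippocampal arrays lay above all of it. In cortex at 24 h Cnp was spread widely, from 13716 to 26565 on the ipsilateral and from 13664 to 23619 on the contralateral side.

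Mog gave 7845, 9507 and 11993 in ipsilateral hippocampus, its highest group. Contralateral hippocampus gave 5650, 7324 and 8941, and all 7 ipsilateral arrays lay above its median. Ipsilateral cortex at 4 h gave 5122, 5992 and 8905, the lowest median of the 6 groups. The within-group SD of log2 Mog went from 0.16 in contralateral cortex at 4 h to 0.44 in contralateral cortex at 24 h.

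Mag was highest in both hippocampal groups, with 23226, 24904 and 31750 on the ipsilateral and 17757, 24188 and 30978 on the contralateral side. The 3 signals were 12487, 17366 and 26991 in ipsilateral cortex at 4 h and 15840, 20027 and 23843 in contralateral cortex at 4 h. At 24 h the medians were 17160 and 16992. A single array, number 1, set the upper end in ipsilateral cortex at 4 h, and the other 6 arrays of that group lay below the lowest ipsilateral hippocampal array.

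Between ipsilateral hippocampus and ipsilateral cortex at 4 h, 4 of the 5 genes changed, where 27.5% of the 7503 tested probe sets passed. Mag was higher in hippocampus by 0.60 (SE 0.14; 1.52-fold; limma, Benjamini-Hochberg adjusted p = 0.00114), Mog by 0.52 (SE 0.16; adjusted p = 0.0114) and Cnp by 0.49 (SE 0.12; adjusted p = 0.00205). All 7 hippocampal arrays lay above the cortical median for each of these 3. Mbp went the other way and was lower by 0.22 (difference −0.22, SE 0.08; adjusted p = 0.0445), with 6 of 7 arrays below the cortical median. The median over the 5 genes was 0.49, against 0.01 over all tested probe sets.

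Mobp depended on the probe set in this comparison. The main probe set differed by 0.10 (95% interval −0.14 to 0.35), and D28110_at by 0.30 (adjusted p = 0.276). With the mean of its probe sets in place of the main one, Mobp passed (0.40, adjusted p = 0.0143). D28110_g_at rose by 0.63 (SE 0.13; adjusted p = 0.000116) and D28111_at by 0.57 (SE 0.14; adjusted p = 0.00202). For D28110_g_at the lowest, median and highest signals were 12669, 15588 and 20225 in hippocampus and 8071, 9747 and 14287 in cortex. The highest cortical array lay within the hippocampal range. Both calls held with quantile normalization and with arrays centred on their median. Across the 11 probe sets 7 rose and 1 fell. The call of Mag M22357_g_at (0.31, adjusted p = 0.0237) was lost with median centring (0.19) and with the 10th percentile as a covariate (0.27).

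The calls of Mag and Cnp in this comparison held under all 10 other settings and with each of the 14 arrays left out. The Mog call was lost with arrays centred on their median (0.40, adjusted p = 0.0865) and with each array's 10th percentile of signal added as a covariate (0.34, adjusted p = 0.105). That percentile, a measure of the dim end of an array, had medians of 41.8 in ipsilateral hippocampus and 58.9 in ipsilateral cortex at 4 h, and its part in the result was otherwise not tested.

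Mbp in this comparison stood near the threshold and turned sign to 0.019 (adjusted p = 0.891) with quantile normalization. Its call was also lost without array 1, 4, 5, 6, 18, 19, 21 or 24 (values from −0.23 to −0.16). With arrays centred on their median the difference was −0.34 (adjusted p = 0.00389). The Mbp probe set was among the 20 brightest of the array, and all 20 of these had lower values in ipsilateral hippocampus than in cortex (median −0.24), 15 of them past the threshold.

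On the contralateral side, hippocampus and cortex at 4 h gave 0 of 5 calls, where 33.7% of all tested probe sets passed (limma, adjusted p from 0.0752 to 0.750 for the 5 genes, with 1 gene, Mbp, under 0.05 before adjustment). Mag differed by 0.25 (95% interval −0.01 to 0.51) and 8 of 9 hippocampal arrays lay above the cortical median. Mbp differed by −0.17 and Mobp by −0.21, each with 8 of 9 arrays below the cortical median. Cnp differed by 0.10 and Mog by −0.07.

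This result moved with the scaling. Quantile normalization called Mag (0.41, adjusted p = 0.0131) and turned Mbp to 0.030, and centring on the median called Mbp (−0.38, adjusted p = 0.000232) and Mobp (−0.42, adjusted p = 0.00520) and turned Cnp to −0.11. Centring also moved the median of all tested probe sets from 0.11 to −0.10 in this comparison and from 0.01 to −0.11 in the ipsilateral one. Without array 11 or array 23 Mbp passed, at −0.20 and −0.19.

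**Figure D2:**
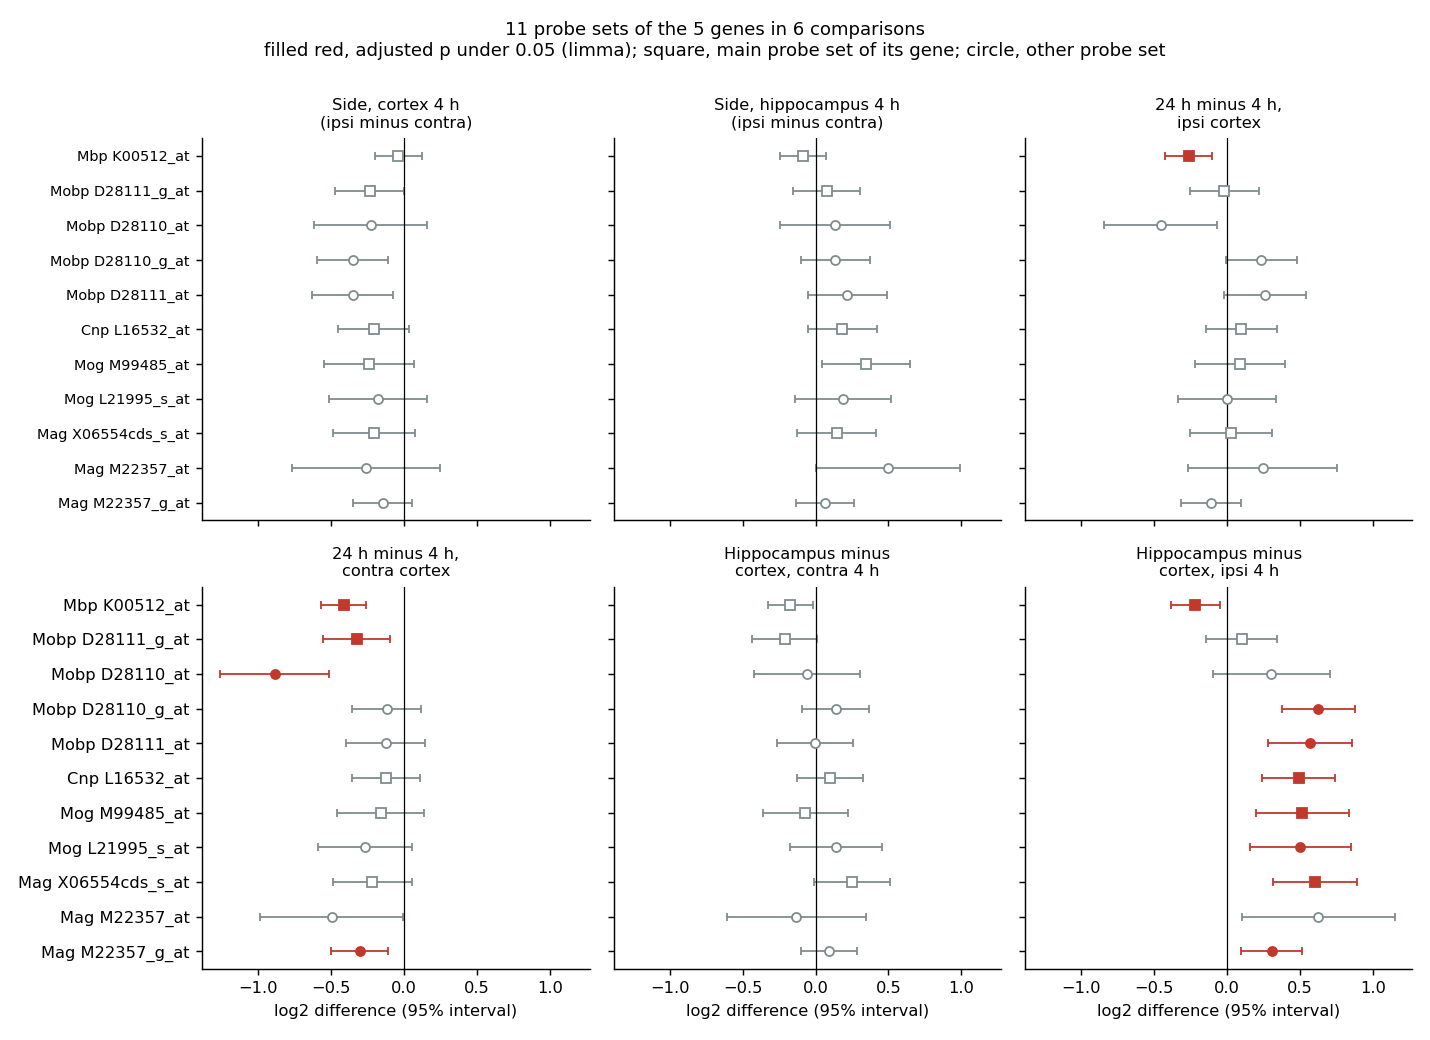
Log2 difference with its 95% interval (x axis) for the 11 probe sets (rows) in 6 comparisons (panels); red filled marks passed the adjusted threshold of 0.05, squares are main probe sets and circles the other probe sets. In ipsilateral hippocampus against cortex 7 probe sets rose and 1 fell, and in contralateral cortex 4 fell between 4 h and 24 h.

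Between 4 h and 24 h in contralateral cortex, 2 of the 5 genes fell, where 21.5% of all tested probe sets passed. Mbp was lower at 24 h by 1.33-fold (difference −0.42, SE 0.08; limma, adjusted p = 9.57e-05), with no overlap between the 8 arrays of each time. How many other probe sets separated as fully was not counted. The 20 brightest, Mbp among them, were all lower at 24 h (median −0.33). Mobp was lower as well (−0.33, SE 0.11; 1.25-fold; adjusted p = 0.0339), in 7 of 8 arrays below the 4 h median. Mag differed by −0.22, Mog by −0.16 and Cnp by −0.12, and none of these passed. The median over the 5 genes was −0.22, against 0.04 over all tested probe sets.

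The largest fall was in another Mobp probe set. D28110_at read 4826, 6851 and 8046 (lowest, median and highest) at 4 h and 2446, 3338 and 5866 at 24 h, and 6 of the 8 later arrays lay below all earlier ones. Its difference was −0.89 (SE 0.19; 1.85-fold; limma, adjusted p = 0.000393). It passed with quantile normalization (adjusted p = 0.000279) and with arrays centred on their median (adjusted p = 0.000140) as well. The 2 Mobp probe sets D28110_g_at (−0.12) and D28111_at (−0.13) did not pass, so the 4 probe sets of this gene differed among themselves. Mag M22357_g_at fell by 0.30 (adjusted p = 0.0201), which quantile normalization took to −0.21 (adjusted p = 0.136).

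In ipsilateral cortex 1 of the 5 genes changed between the times, where 19.3% of all tested probe sets passed. Mbp fell by 0.26 (SE 0.08; 1.20-fold; limma, adjusted p = 0.0159), with 8 of 8 arrays at 24 h below the 4 h median. Without array 1 it was −0.21 and did not pass (adjusted p = 0.0615). The other 4 genes lay between −0.02 and 0.10. D28110_at again had the lowest value of the Mobp probe sets (−0.46, adjusted p = 0.0934), and its signals at 24 h were 2862, 4078 and 5970 against 4102, 5503 and 7830 at 4 h. Centring on the median took it past the threshold (−0.55, adjusted p = 0.0413). D28110_g_at (0.24) and D28111_at (0.26) lay on the other side of 0 and did not pass.

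The fall of Mbp with time stood beside a fall of bright probe sets in general. Of the 20 brightest tested probe sets, 20 were lower at 24 h on the ipsilateral side (median −0.29, 15 past the threshold) and 20 on the contralateral side (median −0.33, 16 past). Among the 100 brightest, 96 and 91 were lower, with medians of −0.26 and −0.25. Quantile normalization, which gives the brightest ranks the same values on every array, left Mbp at 0.012 (adjusted p = 0.939) on the ipsilateral and −0.12 (adjusted p = 0.254) on the contralateral side, and Mobp at −0.17 (adjusted p = 0.335) on the contralateral side. Centring on the median gave −0.36 and −0.52 for Mbp, both past the threshold. The Mobp call was also lost without array 12, 13, 43, 44, 45 or 48 (values from −0.32 to −0.27).

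**Figure D3:**
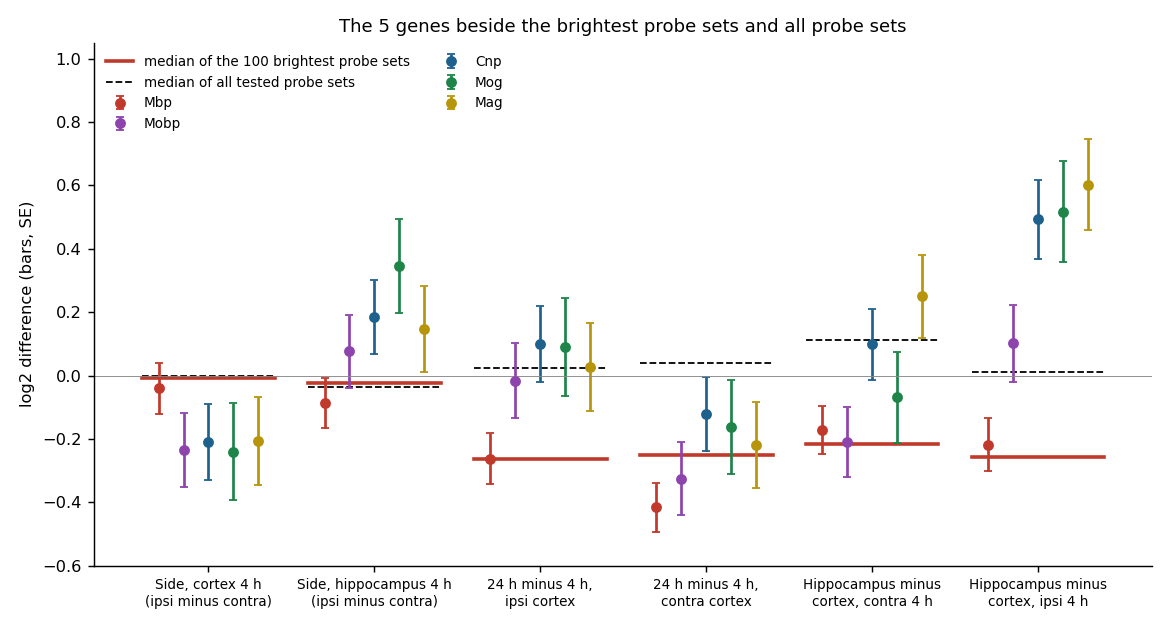
Log2 difference with SE (y axis) of the 5 genes (coloured points) in 6 comparisons (x axis), beside the median of the 100 brightest probe sets (red line) and of all tested probe sets (dashed line). In both time comparisons and both comparisons of hippocampus with cortex, Mbp and the median of the brightest probe sets (−0.26, −0.25, −0.22 and −0.26) were below 0. In contralateral cortex over time Mbp lay lower (−0.42) than that median, which was outside its 95% interval of −0.57 to −0.26. The median of the 20 brightest probe sets (−0.33), which include Mbp and are not drawn, lay inside that interval.

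Between the sides none of the 5 genes passed in any of the 3 comparisons. In cortex at 4 h, 0% of all tested probe sets passed, and no main probe set had an unadjusted p under 0.05. Of the other probe sets, Mobp D28110_g_at and D28111_at were under it, each at −0.35 (limma, adjusted p = 0.429 and 0.547). The difference was near 0 for Mbp (−0.04, 95% interval −0.20 to 0.12). Mobp (−0.24), Mog (−0.24), Cnp (−0.21) and Mag (−0.21) were not past the threshold (limma, adjusted p from 0.676 to 0.801).

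For some of the probe sets the arrays were split within the ipsilateral group. For the main probe sets of Mobp, Cnp and Mog the same 4 ipsilateral arrays, numbers 3, 5, 6 and 8, lay below every contralateral array. The other 3, numbers 1, 4 and 7, lay above the contralateral median. The SD of log2 Cnp was 0.27 among ipsilateral arrays and 0.13 among contralateral ones. D28110_g_at and M22357_g_at had the same 4 arrays below the contralateral range, but only 1 of 7 arrays above the contralateral median. These and the remaining probe sets did not show the full split. The main probe set of Mag had arrays 3 and 7 below that range, and Mbp and Mog L21995_s_at had array 8 alone. Mobp D28111_at had 6 of 7 arrays below it, D28110_at arrays 3 and 4, and Mag M22357_at arrays 3 and 6.

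In cortex at 24 h, where 0.107% of all tested probe sets passed, the 5 genes differed between sides by 0.01 to 0.11, with adjusted p from 0.821 to 1 (limma) and none under 0.05 before adjustment. The widest 95% interval, that of Mog, ran from −0.29 to 0.31. Mag M22357_at gave 0.48 (adjusted p = 0.675).

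In hippocampus at 4 h, where 16.1% of all tested probe sets passed, Mog came nearest, at 0.35 higher on the ipsilateral side (SE 0.15; limma, adjusted p = 0.103). Mog was the only 1 of the 5 main probe sets under 0.05 before adjustment. Of the other probe sets, Mag M22357_at was under it (0.50; limma, adjusted p = 0.157). All 7 ipsilateral arrays lay above the contralateral median and 4 of them, numbers 18, 19, 20 and 24, above every contralateral array. The same 4 arrays lay above the contralateral range for Cnp (0.18, adjusted p = 0.280). Mag differed by 0.15, Mobp by 0.08 and Mbp by −0.09. Mog passed when only these 2 groups were fitted (adjusted p = 0.0344) and with array weights (0.40, adjusted p = 0.0417). These Mog values are those of its main probe set. The other Mog probe set, L21995_s_at, gave 0.19 (limma, adjusted p = 0.445). For it 4 of 7 ipsilateral arrays lay above the contralateral median, and only arrays 19 and 20 above the contralateral range.

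The 10th percentile of signal moved with this side difference, with medians of 41.8 on the ipsilateral and 59.4 on the contralateral side. With it as a covariate the count over all probe sets went from 1207 to 6, the Cnp difference to −0.04 and the median over the 5 genes from 0.15 to −0.01.

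The change of the cortical side difference between 4 h and 24 h was tested itself. It passed for none of the 5 genes (0% of all probe sets passed; limma, adjusted p from 0.918 to 0.968, none under 0.05 before adjustment), with values of 0.15 to 0.31. Of the other probe sets, Mobp D28110_g_at (0.35) and Mag M22357_at (0.74) were under 0.05 before adjustment (limma, adjusted p = 0.880 for each). The difference of the side difference between hippocampus and cortex at 4 h passed for none of the 5 either, where 4.18% of all tested probe sets passed. Mog came nearest with 0.59 (95% interval 0.15 to 1.02; adjusted p = 0.104) and Cnp followed with 0.39 (adjusted p = 0.164), both under 0.05 before adjustment. The Mobp probe sets D28111_at (0.57, adjusted p = 0.0799) and D28110_g_at (0.49, adjusted p = 0.0866) did not pass either.

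Mbp and the other 4 genes did not keep 1 ratio. The log2 signal of Mbp minus the mean of the other 4 on the same array, set to 0 at the median of the 47 arrays, had a group median of 0.28 in ipsilateral cortex at 4 h, with a range from −0.01 to 0.56. In ipsilateral hippocampus the median was −0.38, with a range from −0.56 to −0.08, so these 2 groups did not overlap. The other groups had medians of 0.12 (contralateral cortex at 4 h), 0.09 and 0.00 (ipsilateral and contralateral cortex at 24 h) and −0.10 (contralateral hippocampus). The signals changed unequally, which does not show which gene changed. How often other genes separate these groups as fully was not counted. Mbp was among the 20 brightest probe sets, all lower in ipsilateral hippocampus than in cortex (median −0.24). Quantile normalization turned the sign of the Mbp difference there. The part of brightness and scaling in the ratio was not tested.

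Within groups the 5 genes rose and fell together from array to array. After each array was set against its group mean, all 10 pairs of genes correlated positively over the 47 arrays, and all 10 passed a two-sided permutation test within groups (100000 permutations; Benjamini-Hochberg adjusted p at most 0.0363 for Pearson's r and 0.0419 for Spearman's rho over the 10 pairs; the smallest p these permutations can give is 1e-05). Mog and Cnp made the closest pair, with r = 0.946 and rho = 0.933 (adjusted p = 2.5e-05 by permutation). Their r within single groups ran from 0.856 to 0.995.

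Mbp stood furthest from the rest. Its r was 0.307 with Cnp (rho 0.310), 0.405 with Mog (rho 0.402), 0.602 with Mag (rho 0.601) and 0.667 with Mobp (rho 0.602). The 6 pairs without Mbp had r from 0.632 to 0.946. Leaving out the 2 arrays farthest from the median of the first gene gave r from 0.325 to 0.931 over the 10 pairs.

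The agreement differed between groups. In ipsilateral cortex at 24 h the median r of the 10 pairs was 0.912 and in contralateral cortex at 24 h 0.829. In contralateral cortex at 4 h it was 0.068, with 6 of 10 pairs positive and a lowest r of −0.555, between Mbp and Cnp. Its SDs of log2 signal ran from 0.13 to 0.21, against 0.13 to 0.39 and 0.14 to 0.44 in the ipsilateral and contralateral 24 h groups. Groups of 7 to 9 arrays give r only roughly.

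Some arrays were high or low for several of the 5 genes at once. Array 43 was the lowest of contralateral cortex at 24 h for all 5 genes and array 20 the highest of ipsilateral hippocampus for all 5. Array 34 was highest or second highest of ipsilateral cortex at 24 h for each of the 5, and array 41 was highest of contralateral cortex at 24 h for 4 of them. In 66 checks, 1 for each probe set in each group, no array stood apart by Dixon's criterion.

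**Figure D4:**
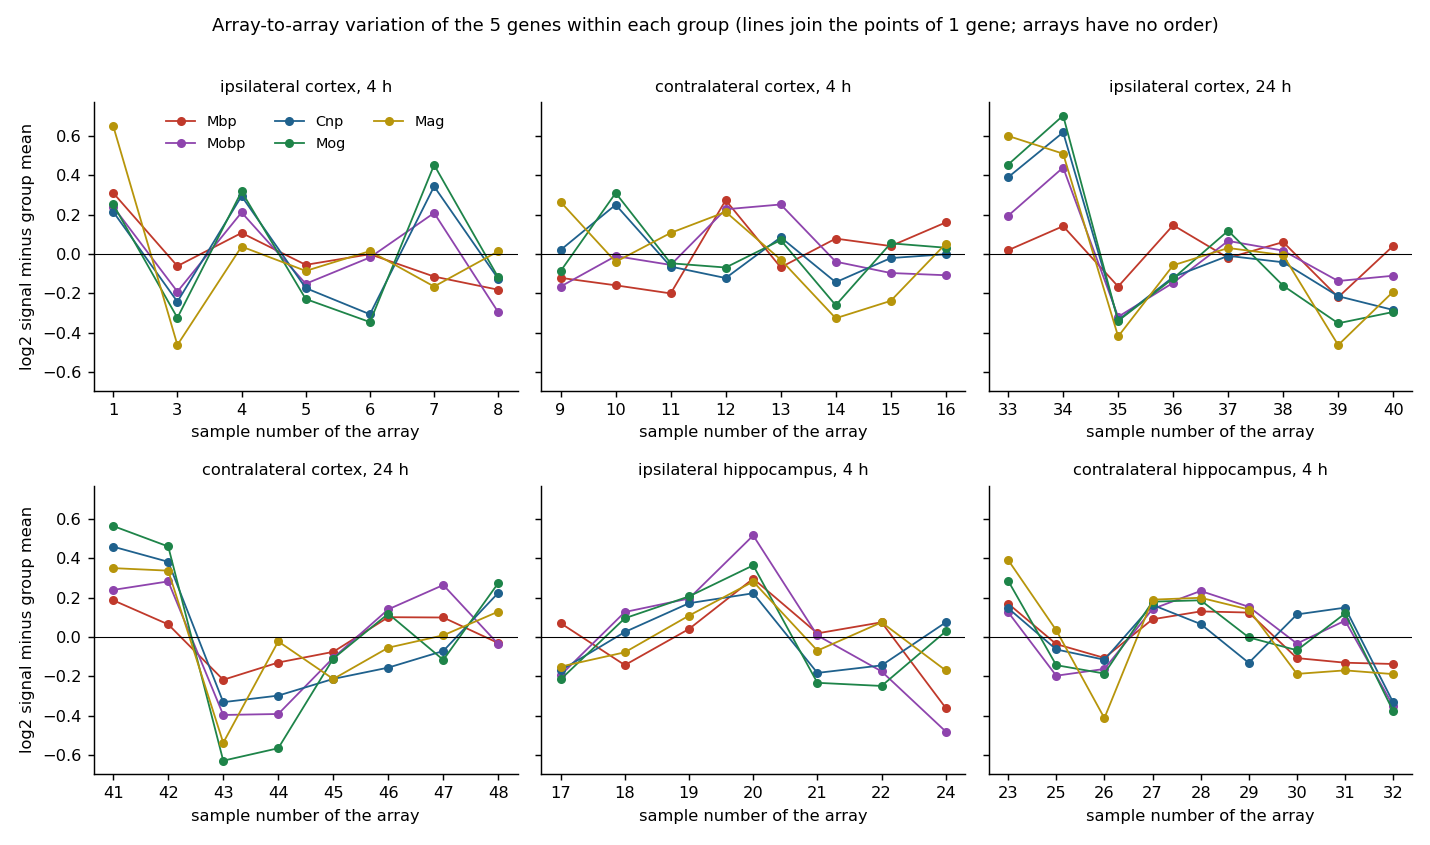
Log2 signal minus the group mean (y axis) of the 5 genes on each array (x axis, sample number) in the 6 groups; lines join the values of 1 gene. The 5 lines run together in both 24 h groups, whose median r were 0.912 and 0.829, and cross in contralateral cortex at 4 h, whose median r was 0.068.

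The probe sets of a gene also differed in how closely they followed one another. Over the 47 group-centred arrays, D28111_at and D28111_g_at of Mobp had r = 0.919, while D28110_at had r from 0.403 to 0.590 with the other 3. The 2 probe sets of Mog had r = 0.758 and the 3 of Mag had r from 0.686 to 0.822. All probe sets share the same 47 libraries, so these values are descriptions.

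The mean of the 5 genes, each centred on its group and divided by its SD, was then set against each of 4237 other genes on the same 47 arrays. These share the libraries, so no p is given. Their median r was −0.04, and 1 in 100 exceeded 0.451. The 10 genes most like the 5 were Mal (r = 0.858), a proteolipid of compact myelin, Pllp (0.814), another myelin proteolipid, Pnlip (0.772), annotated as a pancreatic lipase, Apod (0.712), an apolipoprotein made by oligodendrocytes, Lpar1 (0.711), a lysophosphatidic acid receptor, Ugt8 (0.693), which makes the main myelin glycolipid galactosylceramide, Myrf (0.670), the myelin regulatory factor, Pcyt2 (0.667), an enzyme of phosphatidylethanolamine synthesis, Fnta (0.648), a farnesyltransferase subunit, and Chn2 (0.637), a Rac regulator. Each member was ranked in the same way against the mean of the other 4 among 4238 genes. Mobp and Mog ranked 2, Cnp and Mag 3, and Mbp 22.

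**Figure D5:**
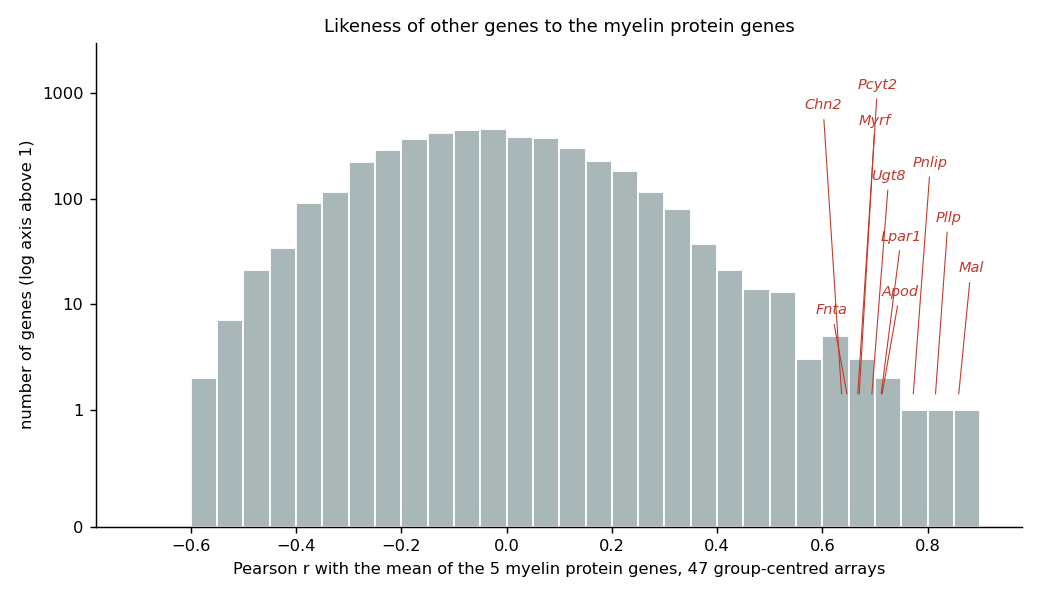
Number of genes (y axis, logarithmic above 1) by Pearson r with the mean of the 5 myelin protein genes over 47 group-centred arrays (x axis), with the 10 most alike named. Mal and Pllp lie furthest right, at 0.858 and 0.814, and the median of all genes was −0.04.

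Gene lists were set against the 5 genes by the same measure. The mean of 10 other myelin protein genes had r = 0.699 and that of 9 oligodendrocyte lineage genes r = 0.696. The mean of 12 microglia and macrophage markers had r = −0.348, with 0 of 12 genes positive. Neuron markers gave −0.146, astrocyte markers −0.091 and endothelium markers −0.220. Among array measures, the median signal gave −0.317, the 10th percentile −0.211, the Gapdh 3′ to 5′ ratio 0.221 and the beta-actin ratio −0.018. Their part in the agreement was not tested.

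Other oligodendrocyte genes were given by 4 lists. Their counts stand beside 27.5% of all tested probe sets past the threshold in ipsilateral hippocampus against cortex and 33.7% in the contralateral comparison. In ipsilateral hippocampus against cortex, 9 of 9 lineage genes had higher values and 6 passed, all higher (median 0.59). Ptprz1, a receptor phosphatase of precursor cells and astrocytes, rose by 1.18, Sox10 by 0.91 (adjusted p = 1.74e-05, limma) and Lpar1 by 0.81. On the contralateral side 6 of the 9 lineage genes also passed, all higher (list median 0.44). Ptprz1 (0.79), Pdgfra (0.57), the receptor that marks precursor cells, and Hes5 (0.55) led them. Of the 5 myelin protein genes 0 passed there. Of 10 other myelin protein genes 9 had higher values and 4 passed, all higher, led by Cntn1 (0.78), Gjb1 (0.70) and Cntn2 (0.66). Of 10 other oligodendrocyte-enriched genes 7 passed, 5 higher and 2 lower, led by Ptgds (−0.73), Gstm1 (0.54) and Sirt2 (0.35). Of 5 myelin lipid genes 0 passed. No test of a difference between the lists was made.

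Of 10 other myelin protein genes, 5 passed in ipsilateral hippocampus against cortex, 4 higher and 1 lower. Cd9, a tetraspanin of the sheath, and Nfasc, which holds the sheath to the axon, each rose by 0.50, and Mpzl1 rose by 0.47. Cntnap1, named after its values were seen, fell by 0.34. Over the group-centred arrays, r with the mean of the 5 genes was 0.46 for Cd9, −0.04 for Nfasc, 0.30 for Mpzl1 and 0.003 for Cntnap1. Of 10 other oligodendrocyte-enriched genes 5 passed, all higher, with Gstm1 (0.75), Sirt2 (0.39) and Sgk1 (0.37) the largest. Of 5 myelin lipid genes, Ugt8 rose by 0.49 and Psap, a lysosomal activator of sphingolipid breakdown, fell by 0.32.

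The other oligodendrocyte lists were counted between the times as well, where 19.3% of all tested probe sets passed on the ipsilateral and 21.5% on the contralateral side. In ipsilateral cortex 4 of 10 other oligodendrocyte-enriched genes rose and none fell, among them Car2 (0.38), a carbonic anhydrase, Apod (0.37) and Qdpr (0.32). In contralateral cortex 2 rose, Qdpr (0.36) and Car2 (0.31), and none fell, a share of the list near that of all probe sets. Of 5 myelin lipid genes 3 fell on the ipsilateral and 2 on the contralateral side, and Sqle, squalene epoxidase of cholesterol synthesis, fell by 0.47 and 0.50. Psap fell on both sides (−0.26 and −0.22) and Dhcr7 on the ipsilateral side (−0.42). Of 9 lineage genes 2 rose on each side and none fell. These were Ptprz1 (0.77 and 0.58), with Id2 (0.34) ipsilaterally and Hes5 (0.70) contralaterally. Contralaterally Mpzl1 fell by 0.26 and Cntn2, an axonal adhesion protein beside the node, rose by 0.59. In the ipsilateral comparison 0 of the 10 other myelin protein genes passed. Between the sides in hippocampus 16.1% of all tested probe sets passed. There 1 of the 10 other myelin protein genes passed, Cntn1 (−0.62, limma, adjusted p = 0.0165). Of 9 lineage genes 1 passed, Lpar1 (0.44, limma, adjusted p = 0.0435). The myelin lipid and other oligodendrocyte-enriched genes gave no call between the hippocampal sides.

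Markers of other cells were counted in the comparison that gave most calls, where 27.5% of all tested probe sets passed. In ipsilateral hippocampus against cortex, 5 of 12 neuron markers passed (2 higher, 3 lower), 5 of 9 astrocyte markers (3 higher, 2 lower), 2 of 12 microglia and macrophage markers (1 each way) and 1 of 4 red blood cell markers (lower). The microglia and red blood cell shares were not above that of all probe sets. The neuron and astrocyte shares were above it, with calls in both directions. The summed signal of the neuron markers ran from 184059 to 194509 in hippocampus and from 184369 to 211417 in cortex. That of the microglia and macrophage markers ran from 28930 to 38481 and from 32584 to 41714. The beta-actin 3′ to 5′ ratio, a measure of RNA integrity, had medians of 1.35 and 1.61. The part of these in the result was not tested.

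Between the times the neuron markers had 3 of 12 past the threshold, all higher at 24 h, on each side, beside 19.3% and 21.5% of all tested probe sets. Of 8 hippocampus-enriched markers, 2 passed on the ipsilateral and 4 on the contralateral side, all higher at 24 h (list medians 0.34 and 0.40). Of 8 striatum and thalamus markers 1 and 2 passed, all higher (medians 0.48 and 0.39). Of 3 cortex-enriched markers 2 and 1 passed, all higher as well (medians 0.61 and 0.47). Of 9 astrocyte markers 2 passed on the ipsilateral side (1 higher, 1 lower) and 3 on the contralateral (1 higher, 2 lower). Their summed signal had medians of 183746 and 192931 in ipsilateral and contralateral cortex at 4 h and 167106 and 168828 at 24 h. Of 12 microglia and macrophage markers 2 passed ipsilaterally, both higher, and 1 contralaterally, lower. The Gapdh 3′ to 5′ ratio had medians of 1.22 and 1.20 in ipsilateral and contralateral cortex at 4 h and 1.09 and 1.07 at 24 h. The part of these in the time differences was not tested.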

How the data were processed

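Per the labels, total RNA was extracted with Trizol. The authors deposited 1 linear intensity (signal) for each probe set. How they summarised probes and scaled arrays is not given in the sources used here. Values were kept as scaled by the authors, since the trimmed means agreed. Signals under the 25th percentile of all values (185.8) were raised to it, log2 was taken, and probe sets above this floor on at least 7 arrays were tested, without 59 control probe sets, which left 7503. Symbols came from the platform annotation (7018 probe sets name 1 gene, 308 several, 1473 none).

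With R 4.3.3 and limma 3.58.1, 6 group means were fitted over all 47 arrays, with eBayes and an intensity trend. All tests were two-sided, with Benjamini-Hochberg adjustment over 7503 probe sets within each of 9 comparisons at 0.05. The procedure was tested on simulated data. Correlations, promoter matches and figures used Python 3.11.15. Sample numbers occur once each, so whether arrays of the 2 sides share an animal is unknown and no pairing was used. Arrays of a group had Pearson's r from 0.944 to 0.985 across probe sets, and no pair was identical.

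The members, the 14 gene lists and the tests were chosen with earlier results of these data known. Named were all members and the 10 genes most like the members. From each of the oligodendrocyte lists, up to 3 genes past the threshold with the largest change were named per comparison. The alternatives were a floor at the 10th percentile, no floor with 100 added before log2, no filter, quantile normalization, centring on the median, array weights, no trend, a covariate (the 10th percentile of signal), the mean of a gene's probe sets, only the groups compared, and leaving out each array. The medians of the brightest probe sets were added after the data were seen.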

Additional observations from a re-analysis of the deposited data

How the results depend on the processing

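No paired analysis was possible because the sample numbers occur once each and do not tie arrays of different groups. Over the 10 alternative settings, 87 of 95 counts stayed within 1.5 times their main value. The exceptions were as follows. In ipsilateral cortex the count between times went from 1 to 0 with quantile normalization, and in contralateral cortex from 2 to 0 with it and to 1 with array weights. For contralateral hippocampus against cortex it went from 0 to 1 with quantile normalization and to 2 with median centring, and for the ipsilateral comparison from 4 to 2 with the 10th percentile as a covariate. For the side difference in hippocampus it went from 0 to 1 with array weights and to 1 with only the groups compared. Leaving out 1 array at a time gave 0 to 1 for the time comparison in ipsilateral cortex and 1 to 2 in contralateral cortex. For hippocampus against cortex it gave 0 to 1 on the contralateral side and 3 to 4 on the ipsilateral side. Mbp turned sign with quantile normalization between times in ipsilateral cortex (0.012) and between ipsilateral hippocampus and cortex (0.019), and the cause was not tested. All 10 gene pairs passed under each of the 5 settings run for them. Of 450 gene differences over settings, 408 kept direction and call. The number of arrays, the unknown summary method and the floor limit what small differences can show.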

Other observations

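The genes that ran most against the 5 myelin protein genes from array to array, over 47 group-centred arrays, were Serpina3n (r = −0.558), an acute phase protease inhibitor, Kcnf1 (−0.550), a potassium channel subunit, Pgr (−0.542), the progesterone receptor, Atrx (−0.521), a chromatin remodeller, and Tpm4 (−0.518), a tropomyosin. Among the astrocyte markers the values lay on both sides, with Ntsr2 at 0.532 and Glul, glutamine synthetase, at −0.469. Among the lineage genes, Sox10 had r = 0.601, while the precursor marker Pdgfra had 0.090 and Ptprz1 −0.058. These genes were picked from the ends of the ranking and are given as values.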
